A study of Mus musculus with 24 samples.

Results

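Transcripts of 10 genes of the MHC class I presentation pathway were followed in 24 RNA sequencing libraries of mouse bone marrow-derived macrophages (BMDMs). The genes were chosen by symbol, H2-K1, H2-D1, B2m, Tap1, Tap2, Tapbp, H2-T23, H2-Q4, H2-Q7 and Nlrc5, and all 10 were among the 35770 gene names of the deposited table and among the 13661 genes tested. The macrophages were grown from the marrow of C57BL/6 mice with M-CSF. For 24 h they received control media or conditioned media (CM) from Lewis lung carcinoma (LL2) cells, a mouse lung cancer line, together with vehicle or 100 nM of the synthetic triterpenoid CDDO-Me. The cancer cells behind the CM were WT, KEAP1 KO or NRF2 KO. The CM was conditioned for 48 h and made up 75% of the medium. KEAP1 and NRF2 were edited in the cancer cells and not in the macrophages, so the editing itself cannot be checked in these libraries. The 4 media and both treatments gave 8 groups, named as medium/treatment (WT CM/vehicle, media/CDDO-Me and so on), of 3 independent samples. The labels do not say whether these came from separate mice, so the p-values measure the spread between these samples.

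MHC class I molecules show peptides from inside the cell to CD8 T cells. A polymorphic heavy chain, H2-K or H2-D in this mouse strain, pairs with beta-2 microglobulin (B2m), and the peptide is brought into the endoplasmic reticulum by the transporter Tap1/Tap2 and loaded with the help of tapasin (Tapbp). H2-T23 encodes the heavy chain of the nonclassical molecule Qa-1, and H2-Q4 and H2-Q7 belong to the Qa family. Nlrc5 is the transactivator of class I genes. It acts through an SXY module in their promoters, to which the RFX complex also binds, while interferon drives the same genes through IRF1 at an element upstream of that module. Macrophages express class I constitutively and raise it when they respond to interferon.

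Of the 10 genes, 8 lie on chromosome 17 within 2.21 megabases of the major histocompatibility complex, between positions 34134873 and 36345571 of GRCm39 in the GENCODE annotation. The heavy chain genes H2-K1 (34214987 to 34219321) and H2-D1 (35481691 to 35486475) lie on either side of the transporter genes Tap1 (34405996 to 34416199) and Tap2 (34422501 to 34435829). Tapbp lies at 34134873 to 34148267, and H2-Q4 (35598586 to 35604274), H2-Q7 (35658131 to 35662749) and H2-T23 (36340229 to 36345571) lie beyond H2-D1. The start site of Tap1 lies 363 bases from that of Psmb9, an immunoproteasome subunit gene on the opposite strand, and the annotated spans of both genes overlap, so reads of the overlap are uncertain between them. B2m lies on chromosome 2 (121977957 to 121983594) and Nlrc5 on chromosome 8 (95160984 to 95253900).

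The promoters of the class I heavy chain genes and of B2m are shown, and these genes were all higher with CDDO-Me in the same groups of libraries. Tap1 and Tapbp were higher there too, and their promoters were searched but are not shown. RefSeq promoters, on GRCm38.p6, were matched for 8 of the 10 genes, with no entry for Tap2 and Nlrc5. The 180 bases before the start site are given from 5′ to 3′ on the gene's strand, at chr17:34000348-34000527 (minus strand) for H2-K1, chr17:35262914-35263093 (plus strand) for H2-D1, chr17:35379437-35379616 (plus strand) for H2-Q4, chr17:35438975-35439154 (plus strand) for H2-Q7, chr2:122147507-122147686 (plus strand) for B2m and chr17:36032702-36032881 (minus strand) for H2-T23. Capitals mark matches, on either strand, to an interferon regulatory factor (IRF) element spelled GAAA, any 2 bases and GAAA or, in a shorter form, GAANNGAAA. They also mark a kappa B element spelled GGG, any 2 bases and TTCCC, and the letters TGACG of an X2 box half-site, wherever these lie.
H2-K1: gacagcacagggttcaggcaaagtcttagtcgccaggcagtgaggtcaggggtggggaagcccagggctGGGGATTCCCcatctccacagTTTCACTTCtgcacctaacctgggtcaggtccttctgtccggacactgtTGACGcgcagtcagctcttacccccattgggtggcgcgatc
H2-D1: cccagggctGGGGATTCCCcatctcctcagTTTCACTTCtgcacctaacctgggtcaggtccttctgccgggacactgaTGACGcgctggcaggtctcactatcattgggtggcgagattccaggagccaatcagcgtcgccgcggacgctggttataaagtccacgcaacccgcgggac
H2-Q4: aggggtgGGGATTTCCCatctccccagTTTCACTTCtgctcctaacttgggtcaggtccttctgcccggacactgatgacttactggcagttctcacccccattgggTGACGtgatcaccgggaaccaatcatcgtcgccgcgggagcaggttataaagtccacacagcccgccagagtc
H2-Q7: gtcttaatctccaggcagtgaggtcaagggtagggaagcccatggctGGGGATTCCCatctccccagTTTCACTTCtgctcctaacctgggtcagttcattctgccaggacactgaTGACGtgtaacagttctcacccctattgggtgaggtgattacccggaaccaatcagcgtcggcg
B2m: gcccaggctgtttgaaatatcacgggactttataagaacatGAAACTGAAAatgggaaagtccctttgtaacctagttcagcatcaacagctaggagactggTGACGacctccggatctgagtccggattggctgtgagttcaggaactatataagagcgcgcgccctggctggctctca
H2-T23: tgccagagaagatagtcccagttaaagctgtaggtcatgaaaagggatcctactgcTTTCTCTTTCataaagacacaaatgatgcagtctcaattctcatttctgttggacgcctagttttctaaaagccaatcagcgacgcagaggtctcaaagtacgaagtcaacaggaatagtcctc
The heavy chain genes H2-K1, H2-D1, H2-Q4 and H2-Q7 held the kappa B element followed by the short IRF element, which reads TTTCACTTC on the strand shown. The IRF match began 90 bases before the start site in H2-K1, 150 in H2-D1, 153 in H2-Q4 and 113 in H2-Q7. In B2m the longer form began 139 bases before the start site, and in H2-T23 it was on the other strand, 124 bases before the start site. Within 250 bases before the start, either form of the IRF element was found in 6 of the 8 promoters, and in 8.91% of the 27018 RefSeq promoters searched. The longer form alone was found in 2 of the 8, B2m and H2-T23, and in 3.04% of all. The 4 short-form matches have the same letters in related heavy chain genes, so they are not separate matches. Tap1, with the largest rise of the 10 genes, and Tapbp held no IRF or kappa B match. The kappa B element was found in 4 of the 8 and in 1.44% of all. TGACG was found in 6 of the 8 and in 17.9% of all, and the Y box core CCAAT in 8 of the 8 and in 34.5% of all. In H2-K1, H2-D1, H2-Q7 and B2m, TGACG lay upstream of a CCAAT on the other strand (ATTGG). In H2-Q4 it lay downstream, beginning 73 bases before the start site against 79 for ATTGG, so it was not at the X2 position of the others. The spellings do not overlap in letters at any of the matches shown, the shorter IRF form was chosen after the sequences were seen, and a match is a description of letters and not of binding.

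The deposited values are in TPM, a level per length of transcript scaled to the same total in every library, estimated with Kallisto, and the number of reads per library is unknown. Differences were tested with limma on log2 of the scaled TPM plus 1 over all 13661 genes, with all 24 libraries in 1 fit and Benjamini-Hochberg adjustment across the whole table for each comparison. The replicate 3 libraries of NRF2 KO CM/vehicle and NRF2 KO CM/CDDO-Me stood apart from the rest. They listed 15702 and 16299 genes above 0, against 17817 to 18993 in the other 22, and mitochondrial transcripts made up 9.87% and 4.74% of their TPM, against 1.54% to 3.32%. Of the class I genes, B2m was at 12569 and 7284 TPM in them and at 3609 to 4233 TPM in the other 4 NRF2 KO CM libraries. Their residual SD in the fit was 0.64 and 0.52 on the log2 scale, against 0.18 to 0.38 in the other 22, so counts of the 10 genes that changed without them are given both ways, each with the share of all genes that passed in the same fit. Heavy chain transcripts are alike, and 23.5% of the stretches of 31 bases in the H2-K1 transcript also occur in other H2 genes, as do 25.0% for H2-D1, 37.9% for H2-T23, 32.3% for H2-Q4 and 53.7% for H2-Q7. Reads of these genes could have been split between them, which makes their separate levels uncertain. B2m and Nlrc5 shared none of these stretches with any gene, and Tap1, Tap2 and Tapbp shared 1.43% to 4.34%.

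CDDO-Me raised all 10 class I genes in BMDMs exposed to WT CM and all 10 in BMDMs exposed to KEAP1 KO CM. With WT CM the median log2 difference of the 10 was 2.34, from 1.05 for H2-D1 to 3.86 for Tap1, and the median over all genes tested was -0.02. With KEAP1 KO CM the median was 2.66, from 1.28 to 3.94, against -0.03 over all genes. Among all genes tested, 14.2% passed as higher with WT CM and 14.3% with KEAP1 KO CM. For all 10 genes, the 3 CDDO-Me libraries lay above the 3 vehicle libraries in each of these CM, where the groups did not overlap for 53.5% and 54.1% of all genes. A change in the number of cells of a type and a change in RNA per cell cannot be told apart in such bulk libraries.

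**Figure D1:**
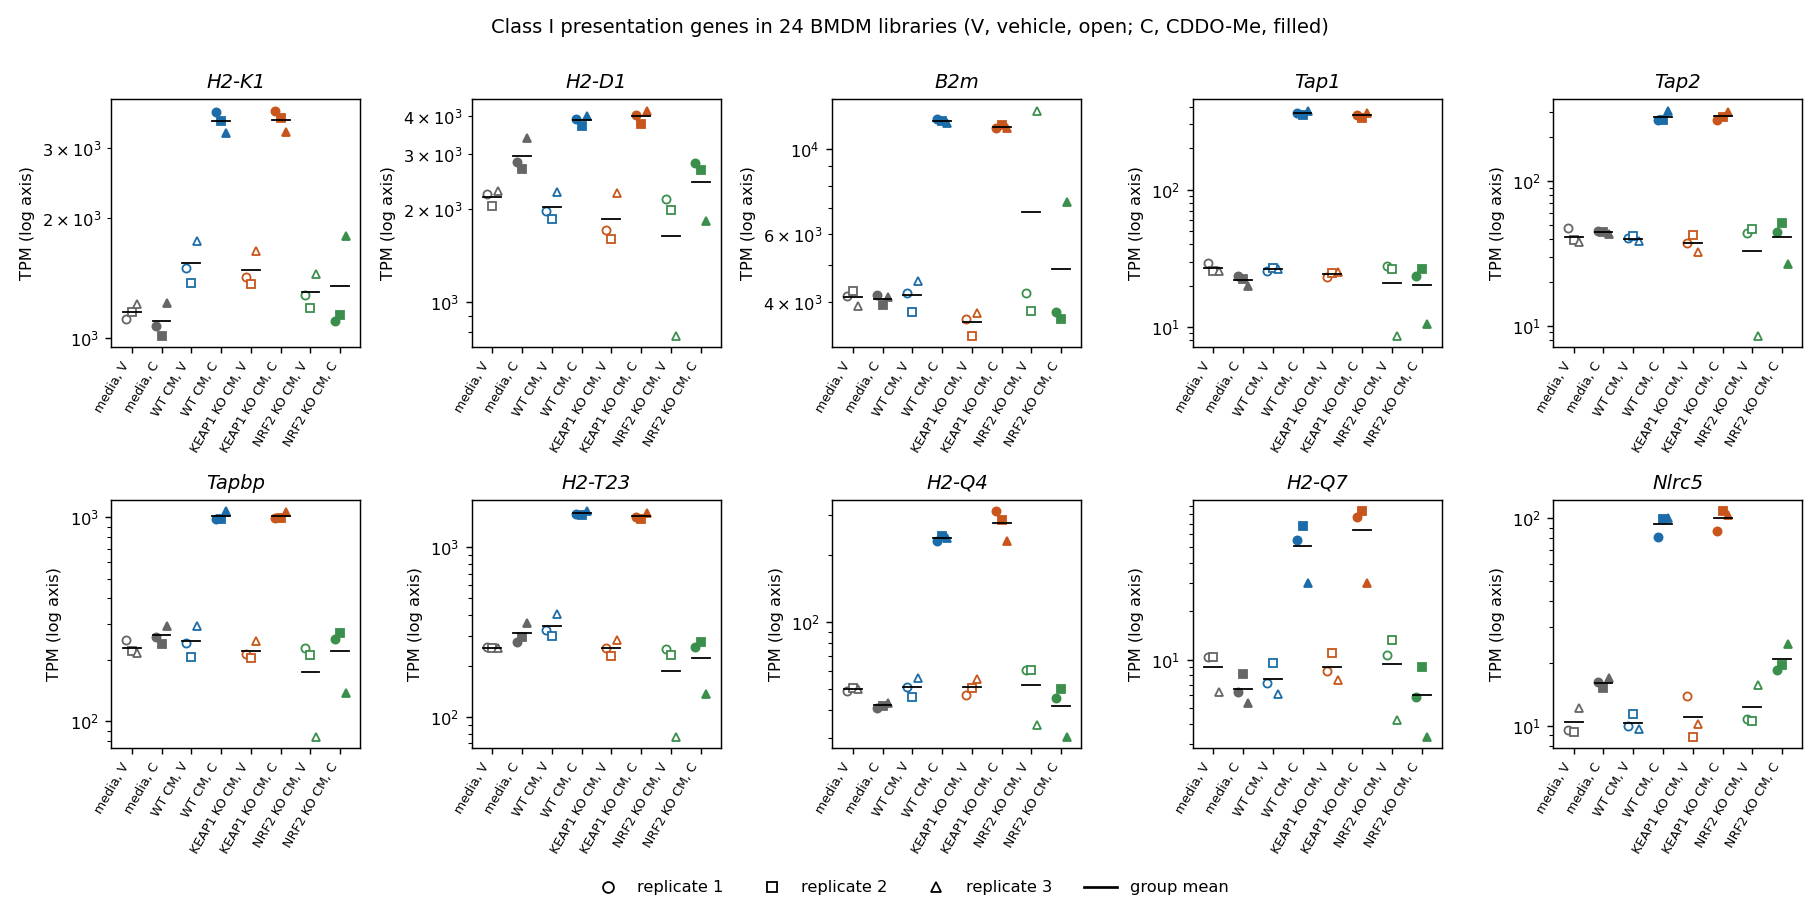
TPM (log axis) of the 10 class I genes in each of the 24 libraries, by medium and treatment, with vehicle open, CDDO-Me filled and a bar at the group mean. The 6 CDDO-Me libraries of WT CM and KEAP1 KO CM lie above the other 18 for 9 genes, and for B2m above all but NRF2 KO CM/vehicle replicate 3. The share of all genes with this pattern was not computed.

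The classical heavy chains rose least. H2-K1 stood at 1501, 1378 and 1758 TPM in the WT CM/vehicle libraries, and at 3702, 3515 and 3279 TPM with WT CM/CDDO-Me. H2-K1 went from 1422, 1372 and 1659 TPM with KEAP1 KO CM/vehicle to 3724, 3571 and 3284 TPM with KEAP1 KO CM/CDDO-Me. The difference was 2.47-fold with WT CM (log2 difference 1.31, SE 0.19, adjusted p = 1.5e-05) and 2.67-fold with KEAP1 KO CM (1.41, SE 0.19, adjusted p = 5.6e-06). H2-D1 stood at 1968, 1853 and 2274 TPM in the WT CM/vehicle libraries, and at 3893, 3699 and 3988 TPM with WT CM/CDDO-Me. H2-D1 went from 1711, 1597 and 2247 TPM with KEAP1 KO CM/vehicle to 4024, 3771 and 4154 TPM with KEAP1 KO CM/CDDO-Me. For H2-D1 it was 2.07-fold with WT CM (log2 difference 1.05, SE 0.25, adjusted p = 0.0034) and 2.43-fold with KEAP1 KO CM (1.28, SE 0.25, adjusted p = 5.4e-04). H2-D1 had the smallest rise of the 10 in both CM.

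B2m, the light chain that all these heavy chains share, was the most abundant of the 10 transcripts. B2m stood at 4219.6, 3766 and 4552 TPM in the WT CM/vehicle libraries, and at 11945, 11791 and 11677 TPM with WT CM/CDDO-Me. B2m went from 3621, 3264 and 3747 TPM with KEAP1 KO CM/vehicle to 11356, 11548 and 11317 TPM with KEAP1 KO CM/CDDO-Me. It rose 3.08-fold with WT CM (log2 difference 1.62, SE 0.34, adjusted p = 0.0011) and 3.61-fold with KEAP1 KO CM (1.85, SE 0.34, adjusted p = 2.8e-04). The CDDO-Me libraries of each CM lay close together, above every vehicle library of that CM.

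Tap1, a subunit of the peptide transporter, had the largest rise of the 10. Tap1 stood at 25.6, 27.01 and 26.4 TPM in the WT CM/vehicle libraries, and at 362, 351 and 377 TPM with WT CM/CDDO-Me. Tap1 went from 23.1, 24.7 and 25.3 TPM with KEAP1 KO CM/vehicle to 349, 333 and 361 TPM with KEAP1 KO CM/CDDO-Me. Tap1 rose 14.5-fold with WT CM (log2 difference 3.86, SE 0.28, adjusted p = 2.1e-09) and 15.4-fold with KEAP1 KO CM (3.94, SE 0.28, adjusted p = 1.5e-09). Tap2 stood at 40.3, 41.5 and 38.3 TPM in the WT CM/vehicle libraries, and at 264, 266 and 307 TPM with WT CM/CDDO-Me. Tap2 went from 37.1, 42.6 and 32.3 TPM with KEAP1 KO CM/vehicle to 265, 279 and 298 TPM with KEAP1 KO CM/CDDO-Me. Tap2 rose 7.40-fold with WT CM (log2 difference 2.89, SE 0.36, adjusted p = 3.1e-06) and 8.25-fold with KEAP1 KO CM (3.04, SE 0.36, adjusted p = 1.6e-06). Tapbp, which holds the empty heavy chain at the transporter, was at 206 to 292 TPM in WT CM/vehicle and at 983 to 1073 TPM in WT CM/CDDO-Me libraries. With KEAP1 KO CM its ranges were 204 to 249 TPM with vehicle and 988 to 1054 TPM with CDDO-Me. Its rise was 4.51-fold with WT CM (log2 difference 2.17, SE 0.26, adjusted p = 1.8e-06) and 5.09-fold with KEAP1 KO CM (2.35, SE 0.26, adjusted p = 6.6e-07).

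The nonclassical heavy chains had larger fold changes than the classical ones. H2-T23, whose product Qa-1 is a ligand of NKG2A receptors, ranged from 301 to 404 TPM in WT CM/vehicle and from 1553 to 1636 TPM in WT CM/CDDO-Me libraries. With KEAP1 KO CM it ranged from 229 to 286 TPM with vehicle and from 1469.5 to 1583 TPM with CDDO-Me. The rise was 5.06-fold with WT CM (log2 difference 2.34, SE 0.29, adjusted p = 3.3e-06) and 6.65-fold with KEAP1 KO CM (2.73, SE 0.29, adjusted p = 4.4e-07). H2-Q4 rose from 50.6 ± 4.97 to 237 ± 6.35 TPM (SD, n = 3) with WT CM and from 50.8 ± 4.10 to 277 ± 42.8 TPM with KEAP1 KO CM, or 5.04-fold with WT CM (log2 difference 2.33, SE 0.16, adjusted p = 7.9e-10) and 5.98-fold with KEAP1 KO CM (2.58, SE 0.16, adjusted p = 1.8e-10). H2-Q7 stood at 7.15, 9.48 and 6.09 TPM in the WT CM/vehicle libraries, and at 55.8, 67.8 and 29.8 TPM with WT CM/CDDO-Me. H2-Q7 went from 8.48, 11.01 and 7.43 TPM with KEAP1 KO CM/vehicle to 77.2, 84.1 and 29.9 TPM with KEAP1 KO CM/CDDO-Me. The CDDO-Me libraries of H2-Q7 were spread widely, and replicate 3 was the lowest library in both CDDO-Me groups and in both vehicle groups. Its rise was 6.34-fold with WT CM (log2 difference 2.66, SE 0.37, adjusted p = 1.4e-05) and 6.67-fold with KEAP1 KO CM (2.74, SE 0.37, adjusted p = 9.4e-06). H2-Q6, its close neighbour, shares 27.0% of the 31-base stretches of H2-Q7, and the sum of both genes rose from 10.2 to 13.8 TPM to 52.8 to 109 TPM with WT CM.

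Nlrc5, the transactivator, was among the genes with the largest rise. Nlrc5 stood at 10.02, 11.4 and 9.64 TPM in the WT CM/vehicle libraries, and at 80.8, 98.6 and 100.4 TPM with WT CM/CDDO-Me. Nlrc5 went from 13.9, 8.86 and 10.2 TPM with KEAP1 KO CM/vehicle to 86.6, 108 and 104 TPM with KEAP1 KO CM/CDDO-Me. It rose 9.02-fold with WT CM (log2 difference 3.17, SE 0.19, adjusted p = 8.4e-11) and 9.48-fold with KEAP1 KO CM (3.24, SE 0.19, adjusted p = 6.4e-11). Its highest level in any of the other 18 libraries was 24.7 TPM, in NRF2 KO CM/CDDO-Me replicate 3, against a lowest level of 80.8 TPM in the 6 CDDO-Me libraries of WT CM and KEAP1 KO CM. Together the 10 genes made up 0.849 ± 0.0893% of all TPM in WT CM/vehicle and 2.28 ± 0.0271% in WT CM/CDDO-Me BMDMs (SD, n = 3), and 2.25 ± 0.0153% in KEAP1 KO CM/CDDO-Me BMDMs.

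In control media 0 of the 10 genes passed the threshold with CDDO-Me, while 6.00% of all genes did (limma), and 1 of the 10 had an unadjusted p under 0.05. The median log2 difference of the 10 was 0.06, against 0.00 over all genes. Nlrc5 came nearest. It was at 9.53, 9.37 and 12.2 TPM with vehicle and at 16.2, 15.1 and 16.9 TPM with CDDO-Me, a log2 difference of 0.61 (SE 0.19, adjusted p = 0.064), and the groups did not overlap. With the replicate number as a block it passed (adjusted p = 0.018), and the count was then 1, with 10.7% of all genes called. Without the pair of NRF2 KO CM replicate 3 libraries 3 of the 10 passed, Nlrc5 (adjusted p = 0.006), H2-D1 (0.45, adjusted p = 0.039) and Tap1 (-0.27, adjusted p = 0.026), and 14.9% of all genes did. H2-D1 was at 2236, 2046 and 2285 TPM with vehicle and at 2822, 2692 and 3397 TPM with CDDO-Me. Tap1, with the largest rise in WT CM, was at 29.1, 25.7 and 25.6 TPM with vehicle and at 23.4, 22.4 and 19.8 TPM with CDDO-Me in control media, lower in every library of the treated group. H2-K1, at 1118 to 1221 TPM with vehicle and 1013 to 1227 TPM with CDDO-Me, overlapped between the groups, as did B2m, Tap2, Tapbp and H2-Q7. For 5 of the 10 the groups did not overlap, as for 31.5% of all genes.

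In NRF2 KO CM, 1 of the 10 genes rose with CDDO-Me, where 9.64% of all genes passed in either direction. Nlrc5 was at 10.8, 10.5 and 15.6 TPM with vehicle and at 18.5, 19.6 and 24.7 TPM with CDDO-Me, a log2 difference of 0.76 (SE 0.19, adjusted p = 0.013). The groups did not overlap, as for 17.6% of all genes. Without both replicate 3 libraries the difference was 0.81 (adjusted p = 0.005) and Nlrc5 was still the 1 of the 10 past the threshold, with 9.55% of all genes. The call was lost without NRF2 KO CM/vehicle replicate 1 (adjusted p = 0.051) or replicate 2 (adjusted p = 0.077), and without NRF2 KO CM/CDDO-Me replicate 3 (adjusted p = 0.070). H2-D1 was at 2148, 1986 and 775 TPM with vehicle and at 2809, 2676 and 1823 TPM with CDDO-Me (log2 difference 0.71, adjusted p = 0.092). Leaving replicate 3 aside, its CDDO-Me libraries were the higher ones. Tap1 was at 27.7, 26.4 and 8.60 TPM with vehicle and at 23.7, 26.5 and 10.4 TPM with CDDO-Me, with replicate 3 the lowest in both groups. No NRF2 KO CM library reached the level of any WT CM/CDDO-Me library for 9 of the genes. For B2m, NRF2 KO CM/vehicle replicate 3 exceeded them. The share of all genes that separate in this way was not computed.

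**Figure D2:**
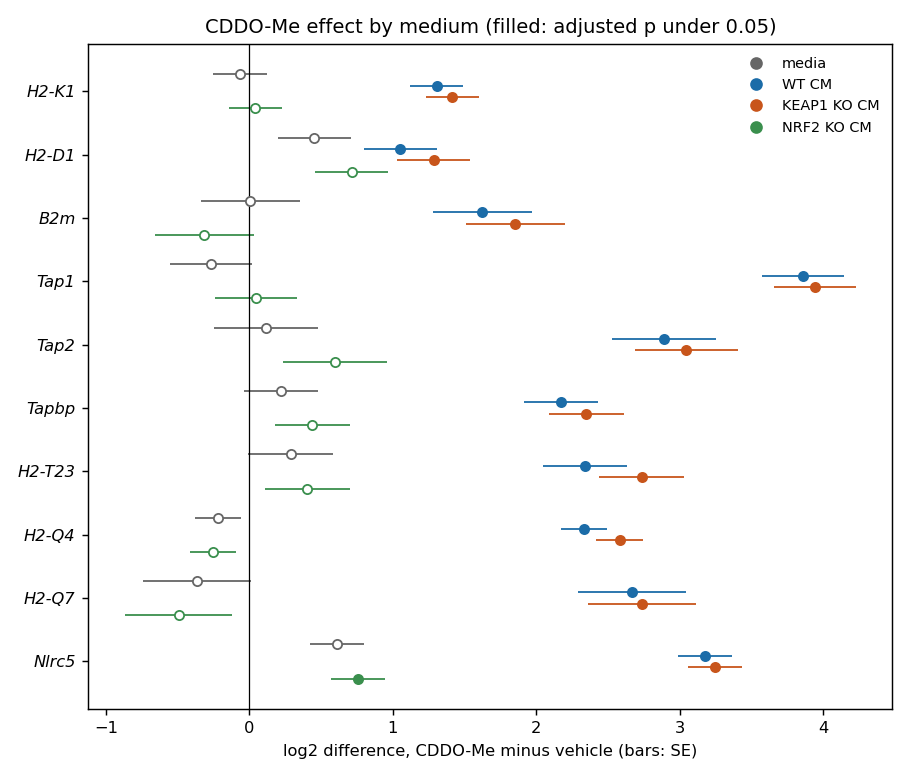
Log2 difference between CDDO-Me and vehicle for each class I gene in each medium, with bars for the SE and filled points for an adjusted p under 0.05. All 10 points are filled in both WT CM and KEAP1 KO CM, 1 for NRF2 KO CM and 0 for control media.

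The difference between media in the effect of CDDO-Me was tested with interaction terms. The effect was larger in WT CM than in control media for 9 of the 10 genes, where 8.43% of all genes passed in this direction, and larger in KEAP1 KO CM than in control media for 9, against 8.08%. For Tap1 the effects differed by 4.12 (SE 0.40, adjusted p = 2.7e-07) for WT CM and by 4.21 (SE 0.40, adjusted p = 2.2e-07) for KEAP1 KO CM. For Nlrc5 they differed by 2.56 (adjusted p = 6.8e-07) and 2.63 (adjusted p = 5.0e-07). The exception in both was H2-D1, with differences of 0.60 (SE 0.36, adjusted p = 0.34) and 0.83 (adjusted p = 0.15). Without the NRF2 KO CM replicate 3 libraries H2-D1 passed too (0.61, adjusted p = 0.031, and 0.84, adjusted p = 0.00423), so that all 10 did in both, where 15.0% and 14.7% of all genes passed in this direction. For B2m in WT CM the difference of 1.62 passed with an adjusted p of 0.028, and this call was lost in 8 of the 12 fits that left out 1 library, with an adjusted p of at most 0.071.

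The interaction with NRF2 KO CM was added after the data were seen. CDDO-Me had a larger effect in WT CM than in NRF2 KO CM on 9 of the 10 genes (7.47% of all genes), and in KEAP1 KO CM than in NRF2 KO CM also on 9 (7.12%). Tap1 differed by 3.81 (SE 0.40, adjusted p = 8.8e-07) and H2-Q4 by 2.59 (SE 0.23, adjusted p = 7.6e-08) between WT CM and NRF2 KO CM. H2-D1 again did not pass (0.34, SE 0.36, adjusted p = 0.68), and without both replicate 3 libraries it was at 0.62 (adjusted p = 0.058) for WT CM and passed for KEAP1 KO CM (0.85, adjusted p = 0.011), so that 9 and 10 passed, with 11.8% and 11.2% of all genes. With only the compared groups in the fit, 7 of the 10 passed in both, since B2m (adjusted p = 0.11 against WT CM and 0.076 against KEAP1 KO CM) and Tap2 (adjusted p = 0.062 and 0.053) were lost. Between NRF2 KO CM and control media 0 of the 10 effects differed (limma, 0 with an unadjusted p under 0.05), with 0% of all genes past the threshold. Between KEAP1 KO CM and WT CM 0 of the 10 differed as well, 0 with an unadjusted p under 0.05 and 0% of all genes called, and the estimates ran from 0.07 for Nlrc5 to 0.39 for H2-T23 on the log2 scale, each with an SE of at least 0.23.

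Among BMDMs that all received CDDO-Me, 9 of the 10 genes were higher with WT CM than with control media. Of all 13661 genes, 13.9% passed as higher there and 3648 passed in either direction. With KEAP1 KO CM 9 of the 10 were also higher than with control media, where 3091 genes (22.6%) passed in either direction. Tap1 was 18.04-fold higher with WT CM (4.17, SE 0.28, adjusted p = 7.4e-10), H2-T23 5.79-fold (adjusted p = 1.7e-06) and H2-K1 3.59-fold (adjusted p = 2.4e-07). H2-D1 did not pass, at 3860.1 ± 148 against 2970.3 ± 375 TPM (SD, n = 3), although all 3 libraries were higher (0.56, adjusted p = 0.12), and it passed without the NRF2 KO CM replicate 3 libraries (adjusted p = 0.0035). For KEAP1 KO CM it did not pass either (0.58, adjusted p = 0.12), and without those libraries it did (0.58, adjusted p = 0.0034). All 10 then passed in both comparisons, where 43.8% and 39.3% of all genes did in either direction. With NRF2 KO CM 0 of the 10 differed from control media (limma, 0 with an unadjusted p under 0.05), where 0.190% of all genes passed. KEAP1 KO CM/CDDO-Me and WT CM/CDDO-Me BMDMs differed for 0 of the 10 (limma, 0 with an unadjusted p under 0.05), where 0.0439% of all genes passed, and the differences ran from -0.09 for Tap1 to 0.23 for H2-Q7.

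With vehicle, no class I gene passed the threshold between cancer CM and control media. In the limma fit 0 of the 10 passed for WT CM (1 with an unadjusted p under 0.05), where 7.25% of all genes passed, and 0 of the 10 for KEAP1 KO CM (0 with an unadjusted p under 0.05), where 8.03% did. H2-K1 was at 1118, 1164 and 1221 TPM in control media and at 1501, 1378 and 1758 TPM with WT CM, above the control range in every library (0.47, SE 0.19, adjusted p = 0.15). It passed with the replicate number as a block (adjusted p = 0.033), which made the count 1, with 12.8% of all genes called. Without the NRF2 KO CM replicate 3 libraries 2 of the 10 passed for WT CM, H2-K1 (adjusted p = 0.0077) and H2-T23 (0.48, adjusted p = 0.015), and 1 for KEAP1 KO CM, H2-K1 (0.34, adjusted p = 0.042), where 18.8% and 21.0% of all genes passed. H2-T23 was at 259.9, 255 and 256 TPM in control media and at 326, 301 and 404 TPM with WT CM, also without overlap. With KEAP1 KO CM, H2-K1 lay above the control range in every library. B2m (-0.21, adjusted p = 0.87) and Tap1 (-0.13, adjusted p = 0.92) lay below that range and did not pass in the fit of all libraries. The share of all genes without overlap is not given for these comparisons, so the lack of overlap is not read as a result.

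NRF2 KO CM/vehicle and media/vehicle BMDMs differed for 0 of the 10 genes (limma, 2 with an unadjusted p under 0.05), where 0.00732% of all genes passed. KEAP1 KO CM/vehicle and WT CM/vehicle BMDMs also differed for 0 of the 10 (limma, 0 with an unadjusted p under 0.05), where 0% of all genes passed, with a median log2 difference of -0.18 against -0.01 over all genes. H2-T23, at 254, 229 and 286 TPM with KEAP1 KO CM and 326, 301 and 404 TPM with WT CM, was lower with KEAP1 KO CM in all 3 same-numbered pairs and without overlap. The same held for B2m and Tap1. The share of all genes without overlap is not given for this comparison, so the lack of overlap is not read as a result. With the replicate number as a block and without both NRF2 KO CM replicate 3 libraries, H2-T23 (-0.48, adjusted p = 0.014) and B2m (-0.30, adjusted p = 0.041) passed as lower, 2 of the 10 where 0.649% of all genes passed. With either change alone 0 of the 10 did. H2-T23 was 2.17-fold higher in WT CM/vehicle than in NRF2 KO CM/vehicle BMDMs (1.12, SE 0.29, adjusted p = 0.019), 1 of 10 where 10.8% of all genes passed. It was at 251, 232 and 76.9 TPM with NRF2 KO CM, so replicate 3 was far below the others. The difference fell to 0.61 (adjusted p = 0.0078) without both replicate 3 libraries, when H2-K1 passed too (0.43, adjusted p = 0.031) and 15.4% of all genes did. It did not pass without NRF2 KO CM/vehicle replicate 3 alone (0.62, adjusted p = 0.070) or without WT CM/vehicle replicate 3 (0.98, adjusted p = 0.0898).

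The proportions between the transcripts also differed between groups. They are ratios of TPM within a library and are given without a test, and the heavy chain values carry the shared sequence noted above. In control media the ratio of H2-K1 to H2-D1 was 0.534 ± 0.0346 (SD, n = 3) with vehicle and 0.373 ± 0.0104 with CDDO-Me. It was 0.760 ± 0.0149 with WT CM/vehicle and 0.908 ± 0.0742 with WT CM/CDDO-Me, so CDDO-Me lowered the ratio in control media and raised it in WT CM, without overlap in either. With KEAP1 KO CM the ratio overlapped between vehicle, at 0.738 to 0.859, and CDDO-Me, at 0.790 to 0.947. With NRF2 KO CM it was 0.598, 0.600 and 1.87 with vehicle and 0.393, 0.427 and 0.987 with CDDO-Me. There it was lower with CDDO-Me in each same-numbered pair, although the groups overlapped through the replicate 3 libraries. The heavy chain sum of H2-K1 and H2-D1 stood at 0.855 ± 0.0320 times the B2m level with WT CM/vehicle and at 0.623 ± 0.0120 times with WT CM/CDDO-Me. With KEAP1 KO CM the same ratio was 0.939 ± 0.0923 with vehicle and 0.658 ± 0.0233 with CDDO-Me. Tap1 was below Tap2 in all 3 libraries of both groups of control media and of WT CM/vehicle, with a ratio of 0.659 ± 0.0284 in the latter, and above it with WT CM/CDDO-Me (1.31 ± 0.0719) and KEAP1 KO CM/CDDO-Me (1.24 ± 0.0665).

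**Figure D3:**
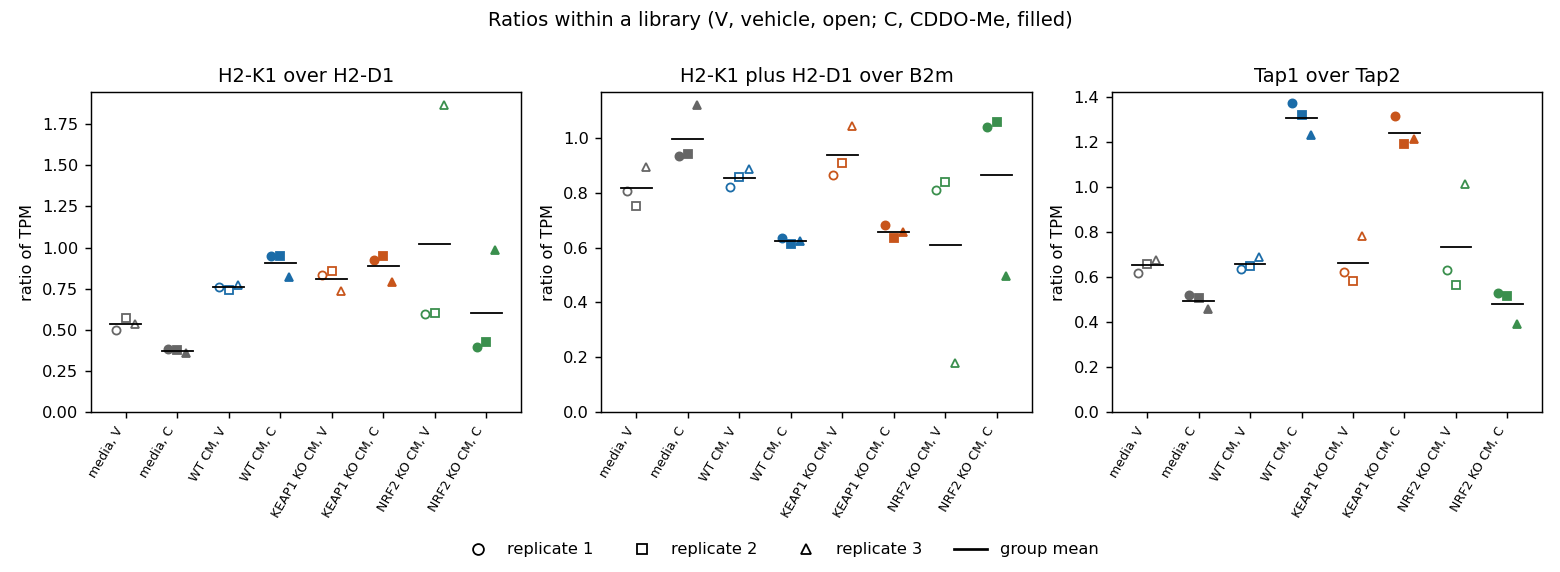
Ratios of TPM within each library for the classical heavy chains, the heavy chains over B2m, and the transporter subunits, by medium and treatment, with vehicle open, CDDO-Me filled and a bar at the group mean. Tap1 exceeds Tap2 in the 6 CDDO-Me libraries of WT CM and KEAP1 KO CM and, by a ratio of 1.01, in NRF2 KO CM/vehicle replicate 3, and lies below it in the rest.

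Of 36 other genes of the pathway, 33 were tested, and H2-Q1, H2-Q2 and H2-T3 were too low. CDDO-Me raised 19 of the 33 and lowered 1 with WT CM, and raised 19 and lowered 1 with KEAP1 KO CM, where 14.2% and 14.3% of all genes passed as higher. The median log2 difference was 0.71 with WT CM and 0.83 with KEAP1 KO CM, against -0.02 and -0.03 over all genes. With control media 0 of the 33 passed (limma, 2 with an unadjusted p under 0.05), where 6.00% of all genes did. With NRF2 KO CM 4 of the 33 passed, a share near the 9.64% of all genes, of which 1 rose, Cd1d1 (0.96, adjusted p = 0.020), and 3 fell, the chaperones Calr (-0.67) and Hspa5 (-0.59) and the class I gene H2-T24 (-0.53).

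Among the regulators, Irf1, which acts downstream of interferon, rose in the same CM as the class I genes. Irf1 was at 81.0 ± 27.97 and 930.0 ± 50.0 TPM (SD, n = 3) without and with CDDO-Me in WT CM (3.68, adjusted p = 4.3e-10), and at 74.1 ± 10.98 TPM in NRF2 KO CM/CDDO-Me. Ciita, the transactivator of class II genes, was at 6.32 ± 2.96 and 196 ± 15.2 TPM (4.94, adjusted p = 8.5e-11). Irf2, which binds the same IRF element, rose by less (0.71, adjusted p = 0.0082). Rfx5 was at 7.82 to 11.2 TPM with vehicle and at 11.1 to 15.8 TPM with CDDO-Me in WT CM (adjusted p = 0.056), and passed in KEAP1 KO CM (0.80, adjusted p = 0.0084). Rfxank was at 11.6 ± 0.784 and 8.56 ± 0.517 TPM and Rfxap at 34.9 ± 3.76 and 29.6 ± 3.31 TPM, and neither passed in WT CM (adjusted p = 0.52 and 0.72) or KEAP1 KO CM (0.85 and 0.24).

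Besides these regulators, the pathway genes with the largest changes in WT CM were Tapbpl, a tapasin-like peptide editor, and H2-Q6, Psmb8, Psmb9 and H2-T24. Tapbpl rose 8.64-fold (3.11, SE 0.19, adjusted p = 1.0e-10), from 13.3 to 20.03 TPM to 117 to 153 TPM. Psmb8 rose 6.34-fold to 961 ± 50.0 TPM and Psmb9, which starts next to Tap1, 6.11-fold to 282 ± 12.7 TPM (SD, n = 3). Psmb10, another immunoproteasome subunit, rose 2.71-fold and the proteasome activator genes Psme1 and Psme2 3.59-fold and 4.00-fold. Of the constitutive subunits that the immunoproteasome replaces, 1 of 3 passed, with Psmb5 at a log2 difference of 0.33 (adjusted p = 0.64), Psmb6 at -0.38 (adjusted p = 0.064) and Psmb7 at 0.53 (adjusted p = 0.0028). Of 4 general chaperones of the endoplasmic reticulum 0 passed, with Calr at -0.23, Canx at -0.14, Pdia3 at 0.09 and Hspa5 at -0.42 (adjusted p = 0.31, 0.34, 0.71 and 0.083). Hfe, a class I-like protein that limits iron uptake, was the 1 gene that fell, from 123 to 174 TPM to 35.5 to 41.8 TPM (-1.86, adjusted p = 2.2e-07). In media/vehicle it was at 48.5 to 52.8 TPM, below its WT CM/vehicle level (1.64, adjusted p = 7.2e-06). The proteasome, chaperone and Hfe values in this paragraph, other than Psmb8 and Psmb9, were chosen for mention after they were seen.

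**Figure D4:**
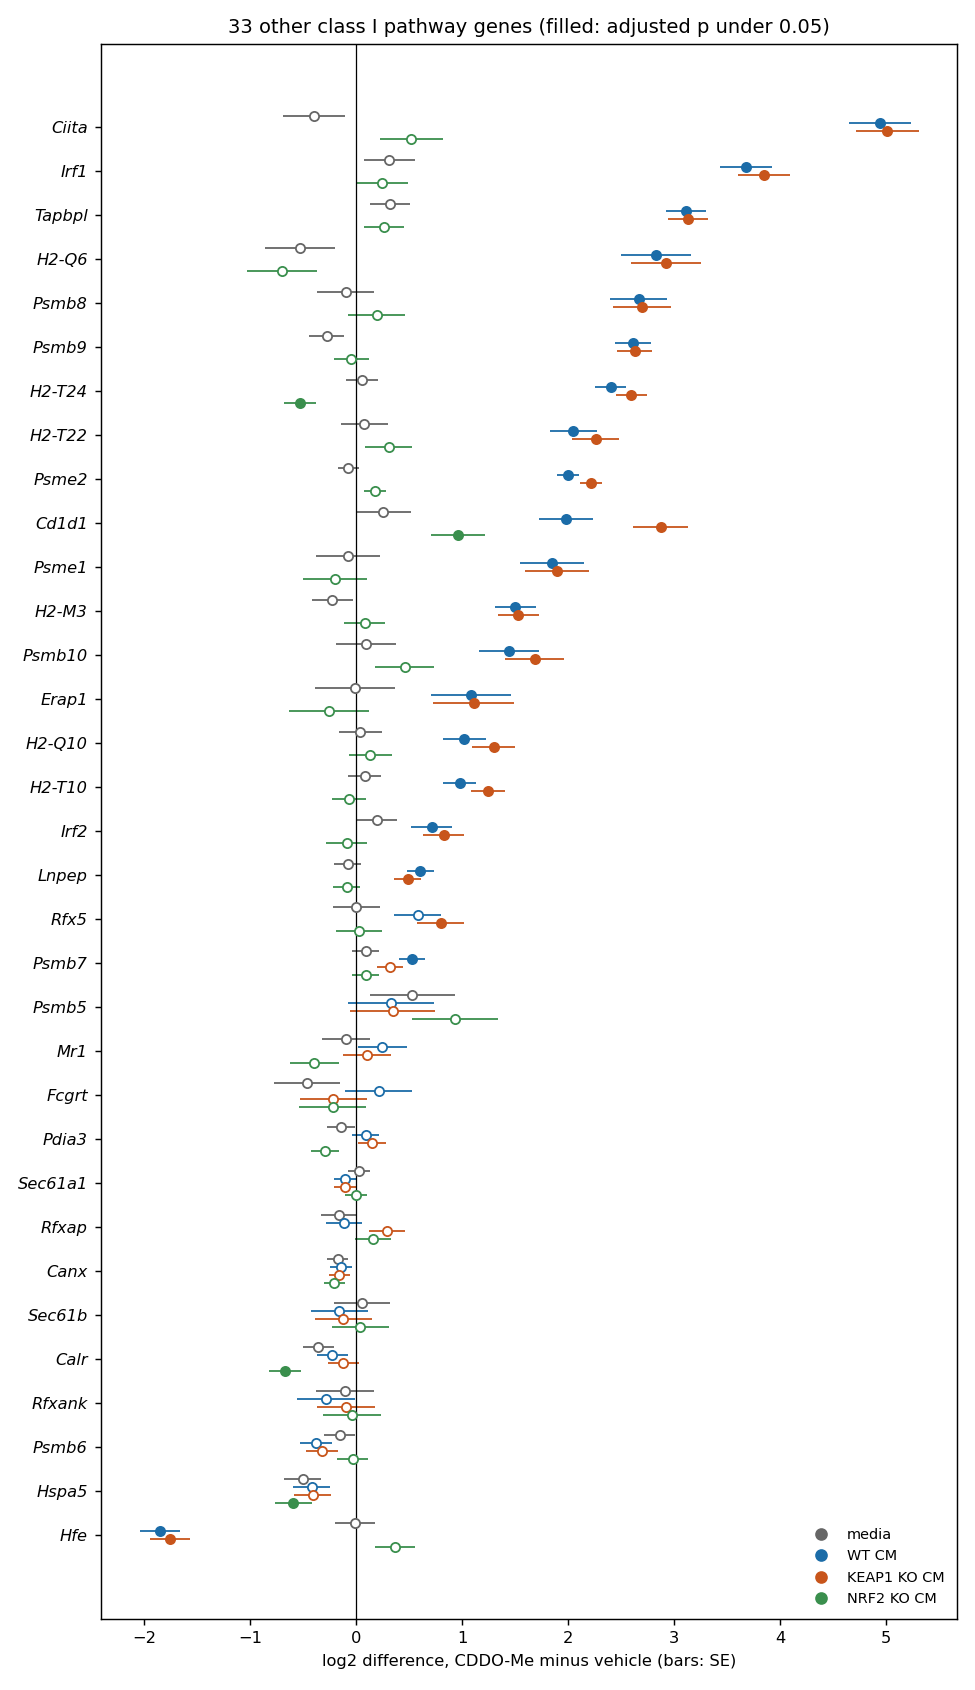
Log2 difference between CDDO-Me and vehicle for the 33 other class I pathway genes tested, in each medium, ordered by WT CM, with bars for the SE and filled points for an adjusted p under 0.05. With WT CM 20 points are filled, 19 of them to the right of 0, and with control media 0 are.

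With vehicle, 4 of the 33 pathway genes were higher with WT CM than with control media, the class I-like genes Hfe and Fcgrt, the neonatal Fc receptor (1.29, adjusted p = 0.013), and Psmb10 (0.93, adjusted p = 0.049) and Psme2 (0.34, adjusted p = 0.047), where 7.25% of all genes passed in either direction. With KEAP1 KO CM, where 8.03% of all genes passed, 4 were higher, Hfe (1.61), Fcgrt (1.20), Calr (0.49, adjusted p = 0.049) and Pdia3 (0.45), and Cd1d1 was lower (-0.95, adjusted p = 0.024). In WT CM/vehicle against NRF2 KO CM/vehicle BMDMs 9 of the 33 were higher and 0 lower, where 10.8% of all genes passed in either direction, led by Hfe (1.75, adjusted p = 3.3e-06), Psmb10 (1.45, adjusted p = 0.0020) and Fcgrt (1.44, adjusted p = 0.0054). With only these groups in the fit 1.35% of all genes passed. Counts of the 33 were made in the fit of all 24 libraries only, among them the NRF2 KO CM replicate 3 libraries that stood apart.

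Across the 24 libraries each gene followed the mean of the other 9, on centred log2 levels, with Pearson's r from 0.76 for B2m to 0.99 for Tap1. Without the NRF2 KO CM replicate 3 libraries r ran from 0.87 for H2-D1 to 0.99 for Tap1, and B2m reached 0.99. The libraries share their groups, so these values describe the pattern and carry no test. Of 10052 other genes with a mean of at least 5 TPM, the 8 most like the mean of the 10 were Serpina3f, Igtp, Tapbpl, Psme2, Plaat3, Slamf8, Il27 and Tlr12, with r from 0.989 to 0.992. The guanosine triphosphatase gene Igtp was at a mean of 12.5 TPM in WT CM/vehicle, 1171 TPM in WT CM/CDDO-Me and 10.6 TPM in media/CDDO-Me libraries. Slamf8, a receptor gene of myeloid cells, was at means of 48.9, 573 and 47.6 TPM in the same groups.

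The 7 macrophage markers were above 1 TPM in every library. With CDDO-Me in WT CM, Fcgr1, the high-affinity Fc receptor gene, rose (3.34) and Cd68 fell (-1.42), and the summed level of the list went from 17258 to 17903 TPM with vehicle to 14888 to 18161 TPM with CDDO-Me. Markers of 5 other kinds of cell were summed beside the class I result. The 5 B cell markers summed to at most 2.65 TPM and the 5 T and NK cell markers to at most 1.89 TPM in any library. Of 6 dendritic cell markers, whose sum was 100.3 to 127 TPM in WT CM/CDDO-Me and 0.998 to 2.02 TPM in WT CM/vehicle libraries, 2 were higher in the groups where the class I genes were higher. Their sum was 47.0 to 86.2 TPM in KEAP1 KO CM/CDDO-Me libraries. Clec9a was at 105 ± 16.03 TPM against 0.192 ± 0.267 TPM and Xcr1 at 3.86 ± 0.890 against 0.0319 ± 0.0119 TPM (SD, n = 3). Flt3 and Zbtb46, which define dendritic cells, were at 0 to 0.0111 TPM and 0.453 to 0.582 TPM in WT CM/CDDO-Me libraries, and Ccr7 and Siglech were under 1 TPM there. The 10 fibroblast markers summed to 562 to 1163 TPM with WT CM/vehicle and 215 to 605 TPM with WT CM/CDDO-Me, and to 794 to 1516 and 172 to 807 TPM with KEAP1 KO CM. The 7 neutrophil markers summed to 11.1 to 36.1 TPM with WT CM/vehicle and 33.5 to 59.4 TPM with WT CM/CDDO-Me, with S100a8 rising (2.18) and Ly6g, Mpo and Elane under 1 TPM. The markers given by name here were chosen for mention after their values were seen. The part of these cells in the class I result was not tested.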

How the data were processed

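The authors deposited TPM for 35770 gene names in 24 libraries of mouse BMDMs, estimated with Kallisto from polyA-selected RNA. Read depth is unknown, so no interval from counts is given, and 1 line without a gene name, 0.0199% to 0.0635% of the total, was left out. TPM were scaled by trimmed means of M values (TMM, trimming 30% of M and 5% of A) and tested as log2(scaled TPM + 1), a scale that understates changes of low genes. The 13661 genes that exceeded 1 TPM in 3 or more libraries were fitted with limma 3.58.1 in R 4.3.3, 8 groups in 1 fit with 16 residual degrees of freedom and a mean-variance trend. Two-sided p-values had a Benjamini-Hochberg adjustment within each of 19 comparisons and a threshold of 0.05. The code was tested on simulated data. Printed levels are deposited TPM.

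The 10 genes, the pathway list and the marker lists were chosen with earlier results of these data known. All 10 genes and 6 regulators are named, with up to 5 other pathway genes per comparison that passed with the largest difference, and the 8 genes most like the 10. Of the pathway list, 1 gene is not reported here. Any other gene is said to have been chosen after its values were seen. The labels give replicate numbers but no shared origin. Deviations from group means of same-numbered libraries correlated at a mean r of 0.26 (0.02 to 0.72) over 84 pairs, against -0.12 over 168 differently numbered pairs. Such deviations cancel out within a group, so the second value largely follows from the first. The replicate block was an alternative. Others were the pseudocount, filters, scaling, trend, array weights, the groups fitted and left-out libraries.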

Additional observations from a re-analysis of the deposited data

Results flagged for a closer look

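The effect of CDDO-Me on the class I genes differed between media by the interaction test of limma in 36 instances, 9 genes in each of 4 pairs of media. Each value is the difference between the log2 effects of CDDO-Me in the named media, with 3 libraries per group. Between WT CM and control media the effects differed by 1.37 for H2-K1, 1.62 for B2m, 4.12 for Tap1, 2.77 for Tap2, 1.95 for Tapbp, 2.05 for H2-T23, 2.55 for H2-Q4, 3.03 for H2-Q7 and 2.56 for Nlrc5. Between KEAP1 KO CM and control media they differed by 1.48 for H2-K1, 1.84 for B2m, 4.21 for Tap1, 2.93 for Tap2, 2.13 for Tapbp, 2.45 for H2-T23, 2.80 for H2-Q4, 3.10 for H2-Q7 and 2.63 for Nlrc5.

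Between WT CM and NRF2 KO CM the effects differed by 1.26 for H2-K1, 1.94 for B2m, 3.81 for Tap1, 2.29 for Tap2, 1.73 for Tapbp, 1.93 for H2-T23, 2.59 for H2-Q4, 3.16 for H2-Q7 and 2.42 for Nlrc5, and between KEAP1 KO CM and NRF2 KO CM by 1.37 for H2-K1, 2.17 for B2m, 3.90 for Tap1, 2.45 for Tap2, 1.91 for Tapbp, 2.33 for H2-T23, 2.83 for H2-Q4, 3.23 for H2-Q7 and 2.49 for Nlrc5. The NRF2 KO CM comparisons were added after the data were seen and include the replicate 3 libraries that stood apart. H2-D1 was absent from all 4 lists, and passed in 3 of the 4 pairs without the NRF2 KO CM replicate 3 libraries. Pairs that share WT CM, KEAP1 KO CM, NRF2 KO CM or control media libraries share their values, so the 4 lists are not separate evidence.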

How the results depend on the processing

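The 10 calls for CDDO-Me in WT CM and in KEAP1 KO CM, and their direction, held in every alternative run. Of 190 gene differences, 76 passed the threshold as reported. Among these 0 reversed and 7 were lost in some setting. A further 24 passed in an alternative only, and of the 90 that passed in no setting 51 changed sign in some setting, so no direction is drawn from them. Of 359 recounts 330 lay within 1.5 times the reported count. The 29 others all concern counts reported as 0 or 1, and their cause was not tested.

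For WT CM/vehicle against media/vehicle (0 reported), the count was 1 with the replicate block, 2 with array weights, 2 without both NRF2 KO CM replicate 3 libraries, 2 with the block and without both, and 2 in the compared groups alone. For KEAP1 KO CM/vehicle against media/vehicle (0) it was 3 with array weights, 1 without both and 3 with the block and without both. For KEAP1 KO CM/vehicle against WT CM/vehicle (0) it was 1 with array weights and 2 with the block and without both. For WT CM/vehicle against NRF2 KO CM/vehicle (1) it was 2 with array weights, without both, and with the block and without both, 0 in the compared groups alone, and 0 to 3 with 1 library left out. For CDDO-Me in control media (0) it was 1 with no scaling, with the block and in the compared groups alone, 3 with array weights, 3 without both and 4 with the block and without both. For CDDO-Me in NRF2 KO CM (1) it was 3 with array weights, 2 with the block and without both, 0 in the compared groups alone, and 0 to 2 with 1 library left out. The block changed no other count of the 10 genes by over 1.5 times. The block without both libraries was added after the data were seen.

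The log2 difference of Nlrc5 between KEAP1 KO CM/vehicle and media/vehicle (0.06) ran from -0.11 to 0.23 with 1 library left out, and was 0.33 with array weights (adjusted p = 0.042). That of H2-D1 between WT CM/vehicle and NRF2 KO CM/vehicle turned to -0.0049 with the block and without both replicate 3 libraries. In the compared groups alone, the interactions of B2m (adjusted p = 0.11 and 0.076) and Tap2 (0.062 and 0.053) with NRF2 KO CM were lost for WT CM and KEAP1 KO CM. With no filter, that of B2m between WT CM and control media was lost (adjusted p = 0.088). Between KEAP1 KO CM and WT CM with CDDO-Me, H2-Q7 (0.23) ran from -0.10 to 0.66 with 1 library left out, and the interaction of Nlrc5 (0.07) from -0.074 to 0.24, and was -0.14 with array weights. Unknown depth limits what the low levels of H2-Q7 and Nlrc5 can show.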
